A study of Homo sapiens with 36 samples.

Results

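The genes described here are 37 genes of cholesterol and fatty acid synthesis, taken by symbol from a list of genes that the SREBP and LXR transcription factors govern, out of 57500 gene identifiers in the count matrix. These genes were chosen with earlier results of these data known. They comprise 7 genes of the mevalonate stage, 11 that turn squalene precursors into cholesterol, 5 regulators of SREBP, 2 sterol carriers, 3 LXR targets and 9 genes of fatty acid supply and synthesis. All 37 passed the filter on low counts and were tested in every comparison. The cells were FLO1 and OE33, established lines of esophageal adenocarcinoma, each stably transduced with a non-targeting shRNA (shControl) or with 1 of 2 shRNAs against APE1 (shAPE1#1 and shAPE1#3). APE1, encoded by APEX1, cuts DNA at abasic sites during base excision repair and, in a separate role, keeps several transcription factors reduced. Each of these 6 kinds of cell either stayed unexposed or was given acidic bile salts (ABS, a cocktail at 200 µM and pH 4.0) for 20 min and then recovered for 6 h in complete medium, which gave 12 groups of 3 libraries of poly(A) RNA. The study's text calls the 3 libraries of a group independent biological replicates. The culture medium was DMEM for FLO1 and RPMI1640 for OE33, so that medium and line cannot be told apart in any comparison between the lines, and no vehicle at neutral pH is described for the unexposed cells.

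Cells make cholesterol from acetyl-CoA through mevalonate, farnesyl pyrophosphate, squalene and lanosterol, and they make fatty acids from the same precursor through malonyl-CoA. SREBF2 and SREBF1 encode membrane-bound precursors of transcription factors. When sterols in the endoplasmic reticulum are low, SCAP escorts these precursors to the Golgi, where proteases free their active part. INSIG1 and INSIG2 hold SCAP back when sterols are plentiful, and LXR, a nuclear receptor for oxysterols, turns on genes of cholesterol export such as ABCA1 and ABCG1. Bile acids are themselves made from cholesterol in the liver and wash over the lower esophagus in reflux, the condition that the ABS exposure was built to model.

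SREBP2 binds the sterol regulatory element (SRE) of its target promoters next to sites for the factor NF-Y, which reads a CCAAT box. The promoters of the following members are shown because SREBF2 is the only matched member that held the SRE letters searched for, and MSMO1, MVK and STARD4 are among the members whose levels moved most after ABS. Each runs 5′ to 3′ on the strand of its gene, from 250 bases before the start of transcription to 50 after it, in RefSeq GRCh38.p14, and capitals mark the SRE and every CCAAT box on either strand. The regions are chr22:41832855-41833154 (plus strand) for SREBF2, chr4:165327419-165327718 (plus strand) for MSMO1, chr12:109573544-109573843 (plus strand) for MVK and chr5:111512486-111512785 (minus strand) for STARD4.
SREBF2: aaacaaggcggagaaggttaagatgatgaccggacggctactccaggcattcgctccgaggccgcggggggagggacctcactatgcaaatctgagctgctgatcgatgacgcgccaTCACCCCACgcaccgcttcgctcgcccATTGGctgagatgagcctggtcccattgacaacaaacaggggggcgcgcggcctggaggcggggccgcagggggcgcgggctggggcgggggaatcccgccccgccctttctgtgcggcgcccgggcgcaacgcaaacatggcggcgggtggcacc
MSMO1: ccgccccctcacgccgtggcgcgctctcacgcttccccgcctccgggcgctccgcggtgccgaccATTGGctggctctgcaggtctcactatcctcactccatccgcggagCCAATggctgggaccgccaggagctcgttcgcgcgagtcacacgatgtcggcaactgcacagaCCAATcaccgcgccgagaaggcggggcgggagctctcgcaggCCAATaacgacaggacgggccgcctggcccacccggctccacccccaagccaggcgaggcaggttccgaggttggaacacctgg
MVK: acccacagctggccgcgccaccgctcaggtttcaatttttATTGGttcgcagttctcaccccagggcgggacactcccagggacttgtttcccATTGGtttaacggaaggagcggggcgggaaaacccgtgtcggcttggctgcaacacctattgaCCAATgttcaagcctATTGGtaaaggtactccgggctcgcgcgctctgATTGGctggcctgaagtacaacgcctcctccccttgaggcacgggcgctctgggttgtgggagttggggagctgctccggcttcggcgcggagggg
STARD4: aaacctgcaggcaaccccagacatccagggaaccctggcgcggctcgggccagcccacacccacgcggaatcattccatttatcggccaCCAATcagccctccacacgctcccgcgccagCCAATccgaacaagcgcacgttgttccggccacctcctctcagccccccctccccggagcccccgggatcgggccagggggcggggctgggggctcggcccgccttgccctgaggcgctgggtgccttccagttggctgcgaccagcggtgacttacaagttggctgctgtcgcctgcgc

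A promoter was found for 32 of the 37 members, and none for ACAT2, FDFT1, SQLE, ABCG1 and FASN. The letters TCACNCCAC, searched on both strands as the SRE, were present in 1 of the 32 promoters (SREBF2, with the first base 133 before the start) and in 1.13% of 35116 promoters of the same length. The CCAAT box, with the letters CCAAT on either strand, was present in 20 of the 32 (62.5%) and in 34.6% of all promoters. MVK held 5 CCAAT boxes, MSMO1 held 4 and STARD4 held 2. The GC box GGGCGG was present in 30 of the 32 (93.8%) against 45.0% of all promoters, and the E-box CACGTG in 5 (15.6%) against 7.26%. The DR4 element that LXR reads, the hexamer AGGTCA repeated after a gap of 4 bases, was in none of the 32 and in 0.0199% of all promoters. A second list of genes of the same pathways, described below, had 39 matched promoters. Of these, 20 held the CCAAT box, 28 the GC box, 4 the E-box and 1 the SRE. Members and second-list genes entered with 1 promoter each, whereas all promoters could hold several starts of a gene. Each motif was counted on its own, the SRE of SREBF2 shared no base with its CCAAT box, and a match describes only the letters of this window.

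The libraries held 20650925 to 40654584 counted reads. APEX1 was lower in every shAPE1 library, at 20.75 to 38.22 read counts scaled to a library of 1000000 (CPM), than in every shControl library, at 171.3 to 201.5 CPM. In the FLO1 shControl ABS group, replicate 2 and replicate 1 stood apart from the other replicates of their group. Their root mean square log2 differences over all expressed genes were 0.431 and 0.321, against 0.129 to 0.233 in the other 34 libraries. Several results that rest on these libraries, but not all, are given with and without them below. KRT8 and KRT18, keratins of simple epithelium, were abundant in both lines. EPCAM and CDH1, which define epithelial cells, stood at 461.6 to 649.8 and 324.6 to 464.0 CPM in OE33 but at 0.347 to 1.69 and 6.53 to 19.6 CPM in FLO1. The summed epithelial markers given below are these genes and KRT19, and in FLO1 that sum was almost wholly keratin. Among the fibroblast markers (COL1A1, COL3A1, DCN, LUM and PDGFRB) COL1A1 stood at 18.5 to 35.95 CPM in FLO1 and the others under 1 CPM, and COL1A1 and COL3A1 reached 11.6 and 3.54 CPM in OE33 shControl ABS replicate 3 alone, against at most 5.27 CPM of COL1A1 in the other OE33 libraries. The summed immune markers stayed under 10 CPM and the summed endothelial markers under 2 CPM in every library.

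ABS was followed by a rise of a small group of sterol genes in FLO1 shControl cells. Genes count as called when the p of edgeR's quasi-likelihood test, adjusted over all genes tested by the Benjamini-Hochberg method, was under 0.05, and FLO1 ABS calls made up 3.0% of 16868 genes (2.48% higher and 0.516% lower). In FLO1, 4 of the 37 members were called, all higher: STARD4, a soluble carrier that moves cholesterol between membranes, HSD17B7, a ketoreductase of postlanosterol synthesis, INSIG1, and IDI1, the isomerase of isopentenyl pyrophosphate. In OE33 shControl cells, where 8.4% of 15540 genes were called (5.89% higher and 2.51% lower), 12 of the 37 members were called, all lower. These 12 were MSMO1, MVK, HMGCS1, STARD4, SQLE, SCD, FDFT1, IDI1, LPIN1, ACSS2, ACAT2 and TMEM97. The median change of the members was 0.03 on the log2 scale in FLO1 and -0.17 in OE33, against -0.01 in both lines for all genes tested.

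**Figure D1:**
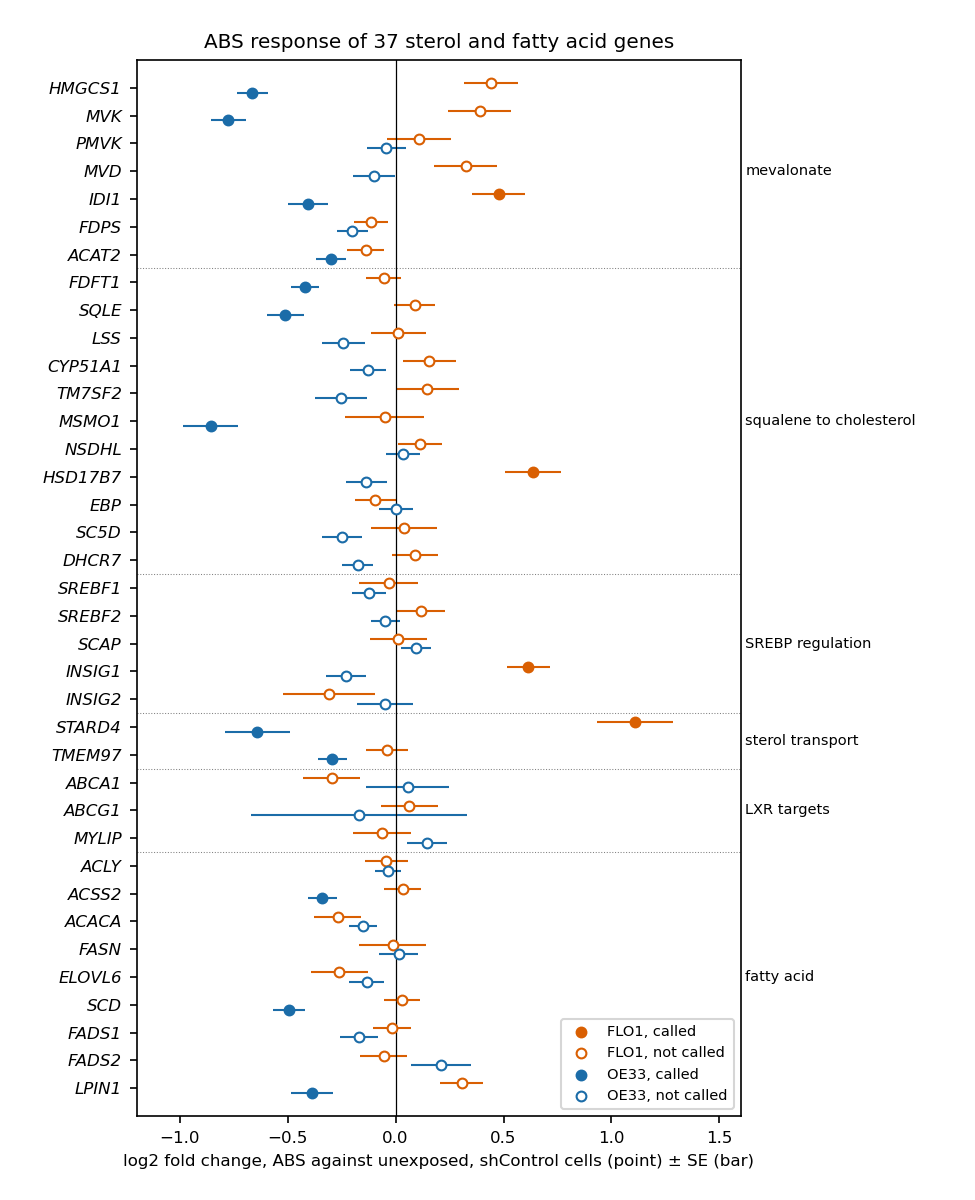
Log2 fold change (horizontal axis) of each of the 37 genes (vertical axis, by step) after ABS in shControl cells, as points with the standard error as bars, for FLO1 (orange) and OE33 (blue). Filled points are called: the 4 filled FLO1 points lie to the right of 0 and the 12 filled OE33 points to the left.

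In the mevalonate stage the lines parted at its entry. HMGCS1 makes hydroxymethylglutaryl-CoA from acetoacetyl-CoA, and in OE33 it stood at 130.4, 138.3 and 144.9 CPM unexposed and at 80.3, 89.7 and 87.0 CPM after ABS. The OE33 groups did not overlap, and the log2 fold change was -0.66 ± 0.07 (SE; edgeR adjusted p = 1.14e-06). In FLO1, HMGCS1 stood at 85.4, 94.4 and 77.2 CPM unexposed and at 154.3, 85.3 and 124.1 CPM after ABS. Replicate 2 after ABS lay within the unexposed range, and the FLO1 change of 0.44 ± 0.12 was not called (edgeR adjusted p = 0.0577), whereas without that library it was 0.62 ± 0.09 (edgeR adjusted p = 1.31e-05).

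MVK, mevalonate kinase, had the lowest adjusted p of the members in OE33. Its OE33 levels were 30.5, 30.5 and 31.8 CPM unexposed and 18.7, 16.4 and 18.3 CPM after ABS, a log2 fold change of -0.77 ± 0.08 (edgeR adjusted p = 6.15e-07). In FLO1 the values were 12.1, 9.53 and 10.1 CPM unexposed and 13.5, 15.7 and 13.7 CPM after ABS, groups that did not overlap but were not called (log2 fold change 0.39 ± 0.15, edgeR adjusted p = 0.192). MVK lies at chr12:109573255-109598117 (GRCh38, GENCODE 29, plus strand) and shares 306 exon bases with MMAB on the opposite strand, whose reads cannot be told apart from those of MVK because the strand setting of the counting is not given in the sources used here.

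IDI1 moved both ways. It rose in FLO1 from 32.9, 39.2 and 32.2 CPM to 64.6, 36.5 and 49.9 CPM, and the groups overlapped through replicate 2 after ABS. The FLO1 log2 fold change was 0.48 ± 0.12 (edgeR adjusted p = 0.0336) with that library and 0.64 ± 0.09 without it. Without replicate 1 after ABS it was 0.29 and not called (edgeR adjusted p = 0.11), and the call was also lost without unexposed replicate 1, unexposed replicate 3 or ABS replicate 3 (edgeR adjusted p = 0.143, 0.133 and 0.0829). In OE33 IDI1 fell from 72.9, 77.7 and 78.6 CPM to 49.95, 59.7 and 60.7 CPM (log2 fold change -0.41 ± 0.09, edgeR adjusted p = 0.00688).

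Of the other mevalonate genes, ACAT2, the cytosolic thiolase that makes acetoacetyl-CoA, fell in OE33 by 0.30 on the log2 scale (SE 0.07, edgeR adjusted p = 0.00615). ACAT2 shares 397 exon bases with TCP1 on the opposite strand, and TCP1 held 494265 counts over the 36 libraries against 76192 for ACAT2, so that this call is uncertain without strand. PMVK, MVD and FDPS, which carry mevalonate phosphate on to farnesyl pyrophosphate, were not called in either line. The 7 genes together summed to 404.2 ± 3.84 CPM unexposed and 466.8 ± 34.2 CPM after ABS in FLO1 shControl cells, and to 629.9 ± 9.03 and 494.4 ± 6.495 CPM in OE33 (mean ± SD, n = 3).

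From squalene to cholesterol, MSMO1 changed most in OE33. MSMO1 is the oxidase that removes the C4 methyl groups of lanosterol, and it stood at 34.2, 38.8 and 44.5 CPM unexposed and at 18.2, 21.8 and 23.8 CPM after ABS. This was a log2 fold change of -0.86 ± 0.13 (edgeR adjusted p = 9.95e-05). SQLE, squalene epoxidase, fell in OE33 from 118.1, 131.0 and 138.4 CPM to 79.4, 92.4 and 96.0 CPM, by 0.51 on the log2 scale (SE 0.09). FDFT1, squalene synthase, fell by 0.42 (SE 0.06), the remaining called member of the 11 in OE33. In FLO1, MSMO1, SQLE and FDFT1 had log2 fold changes of -0.05, 0.09 and -0.06 and were not called. For each of them ABS replicate 2 was the lowest FLO1 shControl library. MSMO1 stood at 7.92, 11.6 and 7.50 CPM unexposed and at 11.8, 5.425 and 9.79 CPM after ABS. SQLE stood at 37.9, 46.3 and 41.6 CPM and at 52.3, 36.7 and 49.8 CPM. These FLO1 changes thus depend on that library, and their values without it are not given.

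HSD17B7 was the member of this stage called in FLO1. It stood at 4.35, 4.49 and 3.96 CPM unexposed and at 7.74, 5.93 and 6.96 CPM after ABS, a log2 fold change of 0.64 ± 0.13 (edgeR adjusted p = 0.00553). It was 0.57 ± 0.15 without replicate 1 after ABS and 0.71 ± 0.14 without replicate 2, called in both cases. In OE33 HSD17B7 stood at 17.1, 14.9 and 17.7 CPM unexposed and at 13.4, 16.4 and 14.7 CPM after ABS, overlapping groups with a log2 fold change of -0.14. HSD17B7 has near-identical pseudogene copies, and its counts are uncertain where reads could be split among them. LSS, CYP51A1, TM7SF2, NSDHL, EBP, SC5D and DHCR7, which close the rings, remove methyl groups and shift double bonds, were not called in either line.

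Of the regulators, only INSIG1 was called. In FLO1 it rose from 23.3, 26.2 and 30.1 CPM to 46.2, 35.8 and 44.4 CPM without overlap, by 0.62 ± 0.10 on the log2 scale (edgeR adjusted p = 0.000486). Without replicate 1 after ABS this was 0.57 ± 0.11 and without replicate 2 it was 0.69 ± 0.09, both called. In OE33 INSIG1 stood at 31.1, 32.6 and 35.0 CPM unexposed and at 25.0, 30.1 and 27.9 CPM after ABS, a log2 fold change of -0.23 ± 0.09 that was not called (edgeR adjusted p = 0.139). SREBF2 changed by 0.12 in FLO1 and by -0.05 in OE33, SREBF1 by -0.03 and -0.12, and SCAP by 0.01 and 0.10, none of them called. SREBF1, SREBF2 and SCAP were each highest in FLO1 shControl ABS replicate 2, where SREBF1 stood at 507.6 CPM against 340.4 and 343.9 CPM in the other replicates. INSIG2 was lowest in that library, at 1.93 CPM against 5.10 and 4.98 CPM.

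STARD4 (chr5:111496033-111512590, GRCh38, GENCODE 29, minus strand) had the largest change of the 37 members in FLO1. It stood at 10.8, 12.2 and 10.5 CPM unexposed and at 35.5, 14.5 and 25.0 CPM after ABS. The groups did not overlap, the replicates after ABS spread over more than a factor of 2, and the log2 fold change was 1.11 ± 0.18 (edgeR adjusted p = 0.000467). It was 0.80 ± 0.15 without replicate 1 after ABS and 1.36 ± 0.11 without replicate 2, called in both cases.

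In OE33, STARD4 fell from 5.39, 6.63 and 7.04 CPM to 3.36, 4.50 and 4.19 CPM, by 0.64 on the log2 scale (SE 0.15, edgeR adjusted p = 0.00772). TMEM97, an endoplasmic reticulum protein also known as the sigma-2 receptor, fell in OE33 by 0.29 (SE 0.07) and was not called in FLO1. TMEM97 shares 361 exon bases with IFT20 on the opposite strand.

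None of the 3 LXR targets (ABCA1, ABCG1 and MYLIP) was called in shControl cells of either line by edgeR's quasi-likelihood test, with 1 and 0 at an unadjusted p under 0.05 in FLO1 and OE33 and 0 and 0 by DESeq2. ABCA1 exports cholesterol to apolipoprotein, and it stood at 23.6, 24.3 and 23.2 CPM unexposed and at 21.6, 20.3 and 18.03 CPM after ABS in FLO1 (log2 fold change -0.30 ± 0.13, edgeR adjusted p = 0.284). ABCG1 was near its detection limit in OE33, at 0.26 to 0.68 CPM in the 6 shControl libraries. MYLIP, an E3 ligase, changed by -0.06 in FLO1 and by 0.15 in OE33, neither called.

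Among the 9 fatty acid genes, 3 fell in OE33 and none was called in FLO1 by edgeR (2 at an unadjusted p under 0.05, 0 by DESeq2). SCD makes monounsaturated fatty acids, and it fell from 352.2, 353.3 and 394.0 CPM to 237.8, 263.3 and 267.6 CPM in OE33, by 0.49 on the log2 scale (SE 0.07, edgeR adjusted p = 9.3e-05). LPIN1, a phosphatidate phosphatase, fell by 0.39 (SE 0.10) in OE33, and in FLO1 it had a change of 0.31 ± 0.10 that was not called (edgeR adjusted p = 0.114). ACSS2, which makes acetyl-CoA from acetate, fell by 0.34 (SE 0.07) in OE33 and stood at 0.03 in FLO1. FASN and ACACA, the synthase and carboxylase of the pathway, were not called in either line, with changes of 0.02 and -0.15 in OE33 and -0.01 and -0.27 in FLO1.

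The calls in FLO1 drew on the spread shared over all 18 FLO1 libraries. With only the 6 libraries compared, edgeR's quasi-likelihood test called 0 members in FLO1 (STARD4, HSD17B7, INSIG1 and IDI1 at adjusted p = 0.178, 0.164, 0.16 and 0.525). In OE33 that fit called 15. Leaving out ABS replicate 1 of OE33 shControl lowered the count from 12 to 7, while leaving out ABS replicate 3, the library with more COL1A1, kept it at 12. The calls over all genes under these settings are not given, so that the counts do not set the members apart from genes at large.

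**Figure D2:**
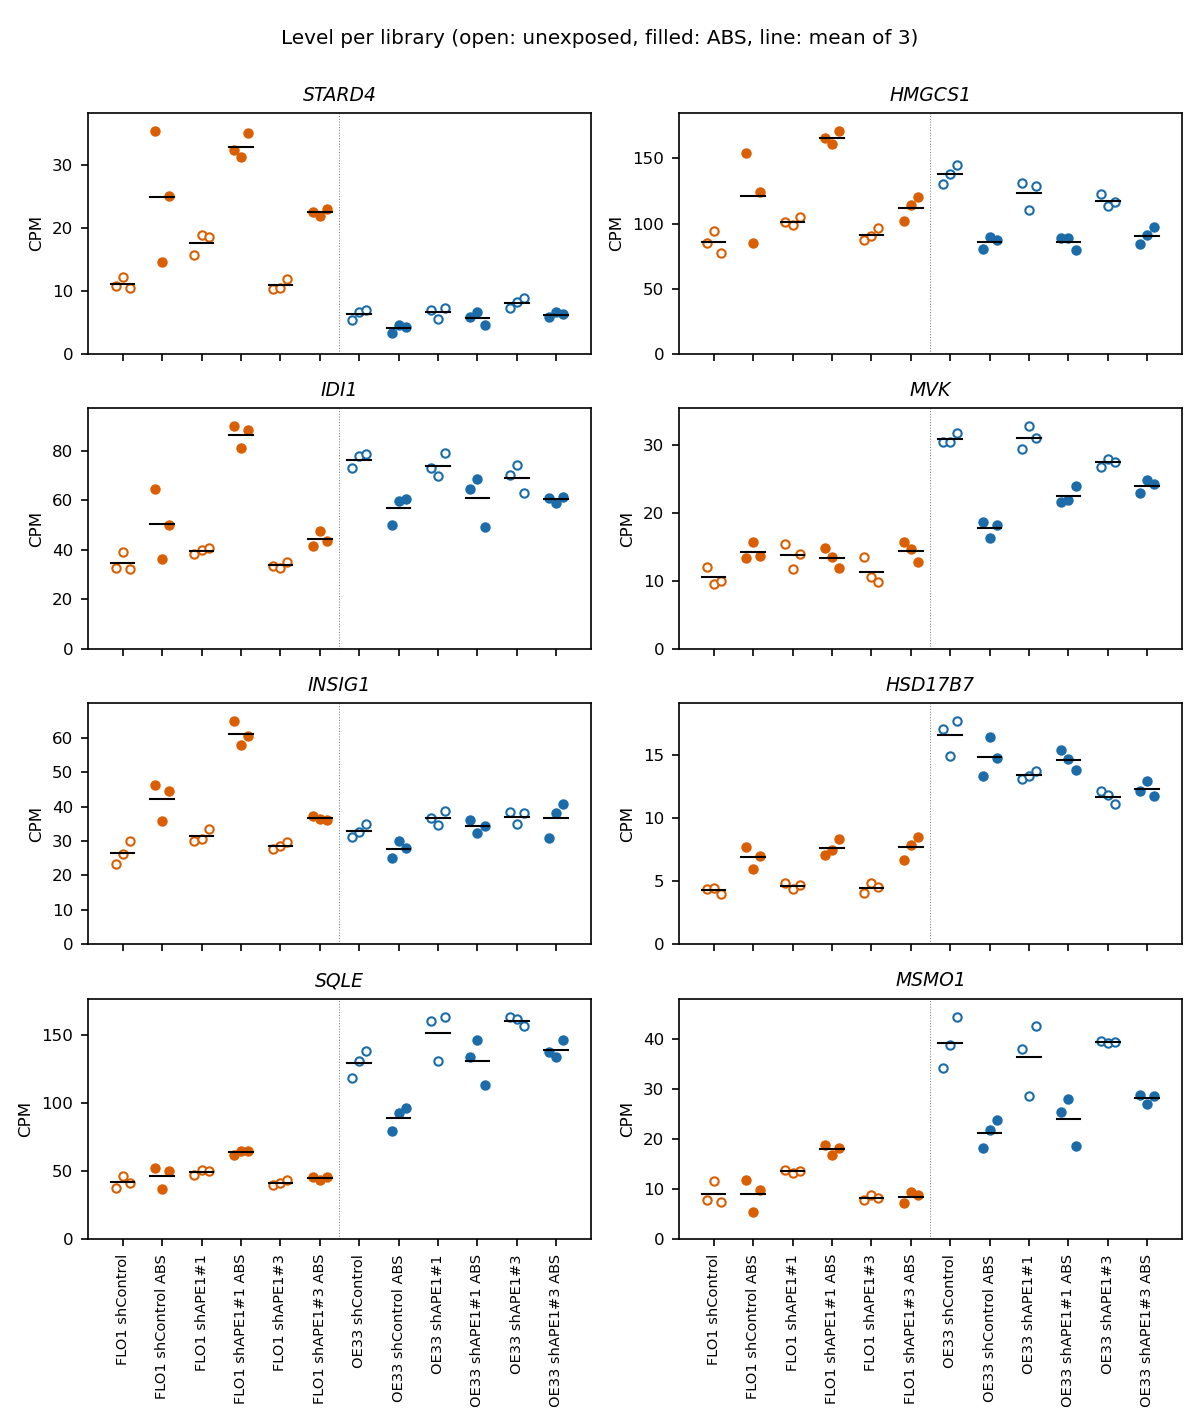
CPM (vertical axis, linear from 0) of 8 genes in each library of the 12 groups (horizontal axis), with FLO1 in orange, OE33 in blue, open circles unexposed, filled circles after ABS and a black line at the mean of 3. Replicates 1 to 3 run from left to right within a group, and STARD4 and HMGCS1 are lowest in replicate 2 of FLO1 shControl ABS, at 14.5 and 85.3 CPM.

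The difference of the ABS response between the lines was tested directly, as the OE33 change minus the FLO1 change in shControl cells. It was called for 1.73% of 18199 genes (0.764% more positive and 0.967% more negative in OE33) and for 11 of the 37 members, all more negative in OE33. The members were chosen knowing that ABS moved such genes in opposite directions in the 2 lines. The count of 11 is therefore no independent support for that difference. STARD4 differed most, by -1.76 ± 0.24 on the log2 scale (edgeR adjusted p = 9.97e-06). MVK differed by -1.17 ± 0.17 and HMGCS1 by -1.11 ± 0.14, both of the mevalonate stage. IDI1 (-0.89), INSIG1 (-0.85), HSD17B7 (-0.78), LPIN1 (-0.70), SQLE (-0.61), SCD (-0.53), ACSS2 (-0.38) and FDFT1 (-0.37) made up the rest.

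Opposite signs held for part of the list. By sign alone, 19 of the 37 members had a positive change in FLO1 and a negative one in OE33, 5 the reverse, 11 were negative in both and 2 positive in both. The same signs were not counted over all genes, so that these counts cannot be set against a general share. The FLO1 signs include ABS replicate 2, which stood apart, and were not counted without it. In the edgeR fits over all libraries of a line, called changes in opposite directions were found for 2 members, STARD4 and IDI1. In these fits 14 members were called in at least 1 line and 23 in neither. With only the 6 libraries compared, 0 members were called in FLO1, a fit whose calls over all genes are not given. DESeq2 called 5 members higher in FLO1 and 12 lower in OE33. Of the members with a called difference between the lines, MVK, HMGCS1, LPIN1, SQLE, SCD, ACSS2 and FDFT1 were called lower in OE33 and not called in FLO1, HSD17B7 and INSIG1 were called higher in FLO1 and not called in OE33, and STARD4 and IDI1 were called in both.

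The difference was called for 13 members without FLO1 shControl ABS replicate 2, where MSMO1 (-1.03), SC5D (-0.50) and TMEM97 (-0.35) joined and ACSS2 dropped out, and for 10 without replicate 1, where FDFT1 (-0.37) was no longer called (edgeR adjusted p = 0.067). STARD4 then stood at -1.99 and -1.45. A fit of only the 4 groups compared called 5. The calls of this difference over all genes are not given for these 3 runs. For the FLO1 shControl ABS response they rose from 506 of 16868 to 923 of 17378 without replicate 2. Without replicate 1 they were 918 of 17354. The counts of 13, 10 and 5 are therefore not read as a result about the members.

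After ABS in FLO1 shAPE1#1 cells, where 5.01% of genes were called (2.94% higher and 2.07% lower), 6 members rose and 2 fell. IDI1 rose from 38.5, 39.8 and 40.8 CPM to 89.98, 81.3 and 88.2 CPM, by 1.10 ± 0.12 on the log2 scale (edgeR adjusted p = 3.31e-06). INSIG1 rose from 30.0, 30.5 and 33.6 CPM to 64.8, 58.0 and 60.6 CPM, by 0.94 ± 0.10 (edgeR adjusted p = 1.39e-06). Replicates of these genes lay close together in this group, and neither pair of groups overlapped. STARD4 (0.88 ± 0.17), HSD17B7 (0.70 ± 0.12), HMGCS1 (0.69 ± 0.12) and SQLE (0.35 ± 0.09) also rose, while ABCA1 fell by 0.60 (SE 0.13) and ACACA by 0.53 (SE 0.11). The SQLE call was lost without any 1 of the 6 libraries compared.

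In FLO1 shAPE1#3 cells, with 1.81% of genes called (1.53% higher and 0.285% lower), 3 members were called. STARD4 rose from 10.4, 10.4 and 11.8 CPM to 22.6, 21.9 and 23.1 CPM, by 1.01 ± 0.18 (edgeR adjusted p = 0.00161). HSD17B7 rose from 4.03, 4.81 and 4.54 CPM to 6.67, 7.86 and 8.54 CPM, by 0.75 ± 0.12 (edgeR adjusted p = 0.00095). STARD4 thus about doubled with close replicates in a comparison that holds none of the libraries that stood apart. ABCA1 fell by 0.52 (SE 0.13, edgeR adjusted p = 0.0457), a call lost without unexposed replicate 1, 2 or 3 or ABS replicate 2 or 3. Since the libraries that stood apart enter these fits through the shared spread, FLO1 shControl ABS replicate 2 was also left out here, which raised the counts from 8 to 11 in shAPE1#1 cells and from 3 to 6 in shAPE1#3 cells. Over all genes the calls rose too. They went from 845 of 16868 to 2195 of 17378 in shAPE1#1 cells, and from 306 to 743 in shAPE1#3 cells.

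**Figure D3:**
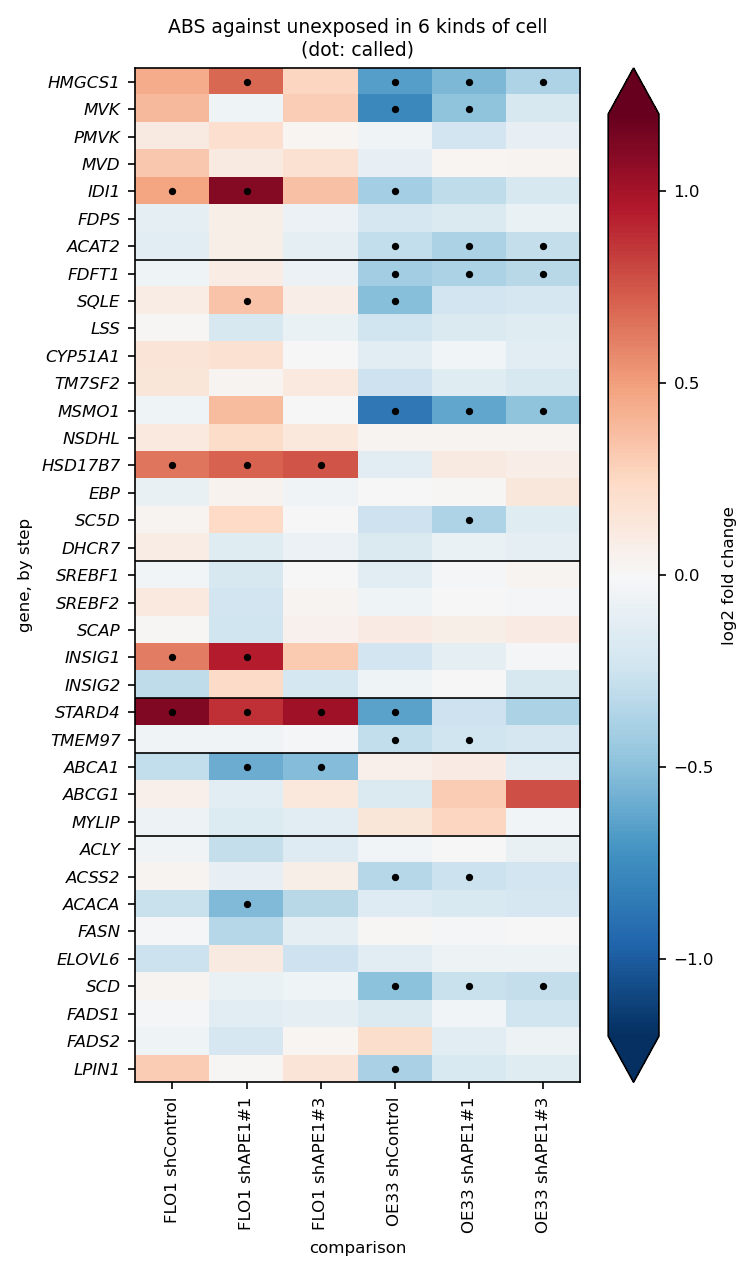
Log2 fold change after ABS (colour, red higher and blue lower) of the 37 genes (rows, by step) in shControl, shAPE1#1 and shAPE1#3 cells of FLO1 and OE33 (columns), with a dot where the change was called. The rows of STARD4 and HSD17B7 are red with dots in the 3 FLO1 columns, and those of HMGCS1, ACAT2, FDFT1, MSMO1 and SCD are blue with dots in the 3 OE33 columns.

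In OE33 shAPE1#1 cells, with 4.73% of genes called (3.02% higher and 1.71% lower), 9 members were called after ABS, all lower. HMGCS1 fell from 130.8, 110.2 and 129.0 CPM to 88.8, 88.8 and 79.6 CPM, by 0.54 (SE 0.07, edgeR adjusted p = 6.23e-05). MVK fell from 29.5, 32.9 and 31.1 CPM to 21.7, 22.02 and 24.1 CPM, by 0.48 (SE 0.08, edgeR adjusted p = 0.000784). MSMO1 fell by 0.62 (SE 0.13), FDFT1 and ACAT2 by 0.38 each, SC5D, the lathosterol desaturase, by 0.37, SCD by 0.27, ACSS2 by 0.25 and TMEM97 by 0.23. The count was 4 without unexposed replicate 3, 5 without ABS replicate 1 or 3, and 1 with only the 2 groups compared. How the calls over all genes moved in these runs is not given.

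In OE33 shAPE1#3 cells, with 2.26% of genes called (1.76% higher and 0.502% lower), 5 members were called after ABS, all lower. MSMO1 fell from 39.6, 39.1 and 39.4 CPM to 28.8, 27.1 and 28.6 CPM, by 0.48 (SE 0.13, edgeR adjusted p = 0.0415). HMGCS1 fell from 122.3, 113.2 and 116.3 CPM to 84.3, 91.0 and 97.1 CPM, by 0.37 (SE 0.07, edgeR adjusted p = 0.005). FDFT1 fell by 0.34, ACAT2 by 0.28 and SCD by 0.28. MVK, at 26.8, 28.1 and 27.6 CPM unexposed and 22.9, 24.9 and 24.3 CPM after ABS, did not overlap between groups but was not called (log2 fold change -0.19, edgeR adjusted p = 0.256). Leaving out any 1 of the 6 libraries lowered the count from 5 to 2, and how the calls over all genes moved is not given.

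Averaged over both shAPE1 shRNAs, the difference in ABS response between the lines was called for 6.85% of genes (3.51% more positive and 3.34% more negative in OE33) and for 12 members. HMGCS1 (-0.94), IDI1 (-0.98), STARD4 (-1.27), INSIG1 (-0.70), HSD17B7 (-0.65), FDFT1 (-0.38), SQLE (-0.44), MSMO1 (-0.75), ACAT2 (-0.32), MVK (-0.46) and ACSS2 (-0.24) were more negative in OE33. ABCA1 was more positive in OE33, by 0.52 ± 0.16 (edgeR adjusted p = 0.0349). These libraries are not those of the shControl comparison, and FLO1 shControl ABS replicates 1 and 2 enter only through the shared spread. Here as well, the members were chosen with earlier results of these data known.

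Whether the shRNAs altered the ABS response was tested as an interaction. No member was called for either shRNA in either line by edgeR's quasi-likelihood test, with 0.0% of genes called in FLO1 and in OE33 shAPE1#1 and 0.0129% in OE33 shAPE1#3. At an unadjusted p under 0.05 there were 5 members for shAPE1#1 and 1 for shAPE1#3 in FLO1, and 3 and 4 in OE33. DESeq2 called 0, 0, 0 and 1. MVK had the largest interaction relative to its error in OE33 shAPE1#3 cells, where its fall after ABS was smaller by 0.59 ± 0.11 on the log2 scale (edgeR adjusted p = 0.147). In FLO1 the value for IDI1 with shAPE1#1 was 0.63 ± 0.17 (edgeR adjusted p = 0.402).

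Without ABS, members were higher in FLO1 shAPE1#1 cells than in shControl cells, where 6.74% of genes were called (4.52% higher and 2.22% lower) and 9 members were, all higher. SCD rose from 508.3, 566.3 and 542.1 CPM in shControl cells to 949.2, 944.5 and 991.3 CPM, by 0.83 ± 0.08 on the log2 scale (edgeR adjusted p = 1.29e-06). ACSS2 rose from 29.5, 27.6 and 28.97 CPM to 47.7, 42.2 and 41.2 CPM, by 0.60 ± 0.09 (edgeR adjusted p = 0.000101). ABCA1 rose from 23.6, 24.3 and 23.2 CPM to 35.6, 37.2 and 37.0 CPM, by 0.62 ± 0.13 (edgeR adjusted p = 0.00394). These 3 genes belong to fatty acid desaturation, acetate use and sterol export, and none overlapped with shControl. STARD4 (0.66), MSMO1 (0.59), ELOVL6 (0.58), an elongase of palmitate, EBP (0.39) and DHCR7 (0.38), of the last steps of cholesterol synthesis, and FADS2 (0.35), a desaturase of polyunsaturated fatty acids, were also called.

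The median of the 37 members was 0.21 against -0.02 for all genes, and 31 had a positive value. The count ran from 4 without shControl replicate 1 or shAPE1#1 replicate 3, and 5 without shControl replicate 2 or shAPE1#1 replicate 1 or 2, to 16 without FLO1 shControl ABS replicate 2. Over all genes, leaving out that ABS library raised the calls from 1137 of 16868 to 2319 of 17378. With only the 2 groups fitted, 17 members were called, a fit whose calls over all genes are not given. The summed epithelial markers, in FLO1 almost wholly keratins, were higher in shAPE1#1 cells as well, at 3695 to 3907 CPM against 2417 to 2747 CPM in shControl. Their part in the result was not tested. An effect of this shRNA or of this population of cells apart from APE1 was not tested either.

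With shAPE1#3 in FLO1, edgeR's quasi-likelihood test called no member unexposed (0.788% of genes called, 0.166% higher and 0.622% lower; 1 member at an unadjusted p under 0.05; 0 by DESeq2). SCD stood at 552.4, 593.9 and 573.0 CPM in these cells, and ABCA1 at 18.4, 21.03 and 20.1 CPM. The shRNAs were therefore compared with each other: shAPE1#3 minus shAPE1#1 was called for 12.2% of genes (4.66% higher and 7.52% lower) and for 9 members, all lower with shAPE1#3. ABCA1 (-0.89 ± 0.13), SCD (-0.76 ± 0.08), MSMO1 (-0.72), STARD4 (-0.72), INSIG2 (-0.71), ELOVL6 (-0.70), ACSS2 (-0.68), TM7SF2 (-0.65), a sterol reductase, and EBP (-0.47) differed. APEX1 was at 24.9 to 25.3 CPM with shAPE1#1 and at 36.1 to 38.2 CPM with shAPE1#3 in these unexposed cells.

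After ABS, shAPE1#1 against shControl in FLO1 gave 11 members called, all higher, with 16.6% of genes called (8.26% higher and 8.31% lower). MSMO1 stood at 11.8, 5.42 and 9.79 CPM in shControl and at 18.8, 16.8 and 18.3 CPM in shAPE1#1 cells (log2 fold change 1.02 ± 0.18, edgeR adjusted p = 0.00049). INSIG2 stood at 5.10, 1.93 and 4.98 CPM and at 7.24, 8.12 and 8.47 CPM (1.00 ± 0.20, edgeR adjusted p = 0.00214). In both, replicate 2 of shControl was the lowest library, and without it the changes were 0.79 ± 0.14 for MSMO1 and 0.71 ± 0.15 for INSIG2, still called. ELOVL6 (0.95), IDI1 (0.81), SCD (0.72), INSIG1 (0.56), EBP (0.53), SQLE (0.49), HMGCS1 (0.48), ACSS2 (0.47) and FDFT1 (0.29) were called too. Without that library these 11 were still called, HMGCS1 at 0.31, and 15 members were called in all, with 2390 of 17378 genes called. Without replicate 1, 15 members were called as well, but with 4565 of 17354 genes called. The summed epithelial markers, again almost wholly keratins, stood at 4217 to 4622 CPM in shAPE1#1 and at 2506 to 3047 CPM in shControl cells after ABS. Their part was not tested.

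With only the 2 groups fitted, that comparison gave 4 members, again without a count over all genes. For shAPE1#3 after ABS, edgeR's quasi-likelihood test called no member, with 0.783% of genes called (0.124% higher and 0.658% lower), 3 members at an unadjusted p under 0.05 and 1 by DESeq2. Without FLO1 shControl ABS replicate 2, 6 were called, with STARD4 (-0.41), ABCA1 (-0.46), IDI1 (-0.35) and HMGCS1 (-0.29) lower and SREBF1 (0.36) and LSS (0.33) higher in shAPE1#3 cells. The number called over all genes rose too, from 132 of 16868 to 1126 of 17378. The shRNAs differed after ABS in 15 members, all lower with shAPE1#3, with 22.3% of genes called (11.3% higher and the rest lower), and INSIG2 (-1.15), MSMO1 (-1.10), ELOVL6 (-1.06) and IDI1 (-0.996) differed most.

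**Figure D4:**
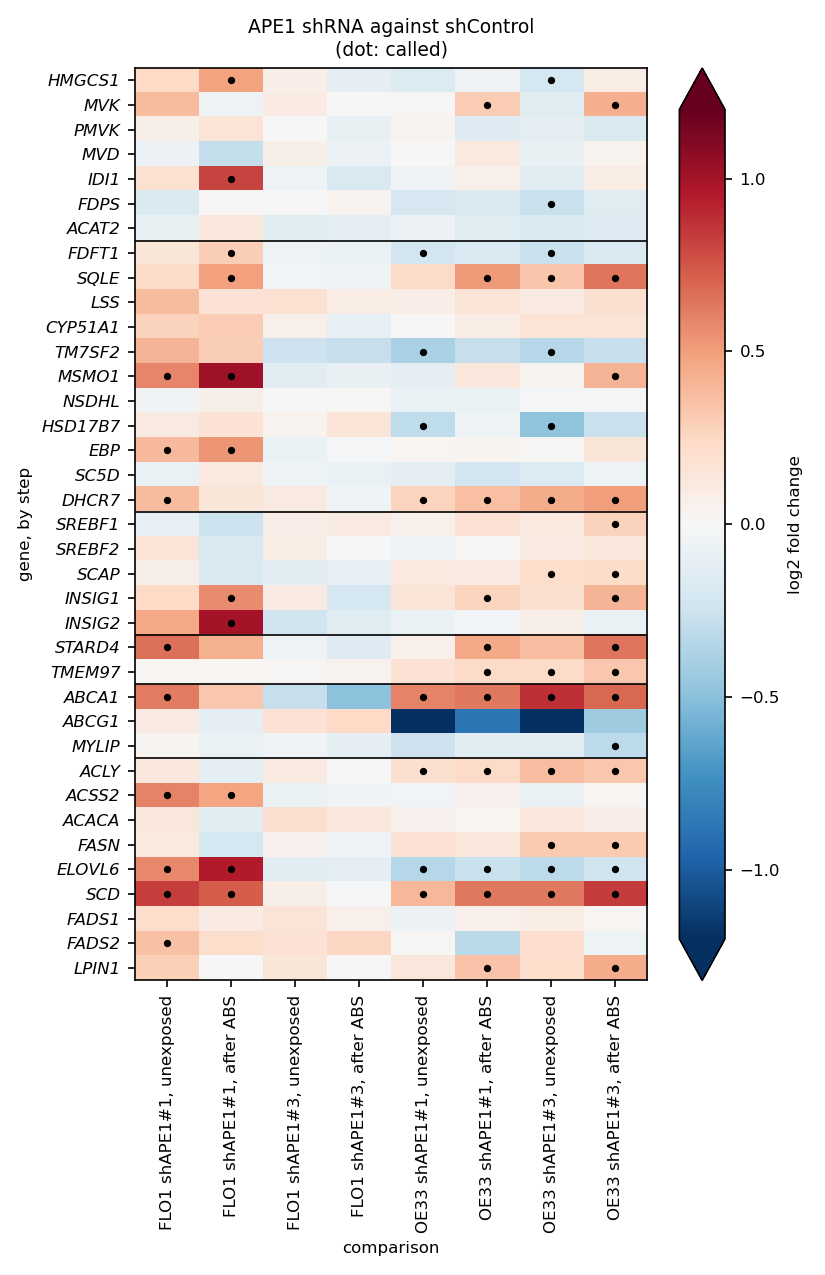
Log2 fold change of each shAPE1 shRNA against shControl (colour, red higher and blue lower; values past the ends of the scale take the end colour) of the 37 genes (rows, by step) in FLO1 and OE33, unexposed and after ABS (columns), with a dot where the change was called. The FLO1 shAPE1#3 columns hold no dot, and SCD has a dot in the other 6 columns.

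In OE33 shAPE1 cells, members differed from shControl both ways, and so did genes at large. With shAPE1#1, 4 members rose and 4 fell unexposed, with 16.4% of genes called (8.24% higher and 8.13% lower). The share of members called in each direction was little above these, so that the shAPE1#1 counts do not set the members apart. With shAPE1#3 unexposed, 8 members rose and 6 fell, with 21.7% of genes called (11.2% higher and 10.5% lower). SCD stood at 352.2, 353.3 and 394.0 CPM in shControl cells, at 524.6, 438.7 and 489.5 CPM with shAPE1#1 and at 582.5, 525.4 and 572.0 CPM with shAPE1#3, log2 fold changes of 0.40 ± 0.07 and 0.63 ± 0.07 (edgeR adjusted p = 0.000301 and 5.87e-07). DHCR7, the reductase that completes cholesterol, stood at 117.0, 114.6 and 116.9 CPM, at 140.8, 142.8 and 134.7 CPM and at 151.5, 153.7 and 164.0 CPM, changes of 0.26 and 0.45. ABCA1 changed by 0.59 and 0.88 and ACLY, which makes cytosolic acetyl-CoA from citrate, by 0.19 and 0.37. For these 4 genes no shAPE1 library overlapped with shControl.

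Lower in OE33 were ELOVL6 (-0.34 with shAPE1#1 and -0.31 with shAPE1#3), TM7SF2 (-0.39 and -0.34), HSD17B7 (-0.31 and -0.48) and FDFT1 (-0.22 and -0.27). ELOVL6 stood at 90.2, 91.9 and 107.2 CPM in shControl cells, at 76.9, 67.3 and 84.5 CPM with shAPE1#1 and at 77.8, 76.7 and 75.1 CPM with shAPE1#3. With shAPE1#3, SQLE (0.33), FASN (0.32), TMEM97 (0.23) and SCAP (0.22) also rose and FDPS (-0.26) and HMGCS1 (-0.21) fell. The 2 shRNA comparisons share their shControl libraries. The shAPE1#1 count was 3 without shControl replicate 1, 4 without shControl replicate 2 or shAPE1#1 replicate 1, and 5 without shAPE1#1 replicate 3, and the shAPE1#3 count was 9 without its replicate 1. The summed epithelial markers were lower with either shRNA in OE33, at 17220 to 18970 CPM against 21160 to 22920 CPM unexposed, and their part in the result was not tested.

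After ABS in OE33, more members were higher with the shRNAs than lower. With shAPE1#1, 10 were higher and 1 lower, with 15.8% of genes called (7.34% higher and 8.46% lower), and with shAPE1#3, 14 were higher and 2 lower, with 18.1% called (8.75% and 9.31%). SCD (0.63 and 0.84), ABCA1 (0.63 and 0.69), SQLE (0.51 and 0.64), STARD4 (0.46 and 0.64), DHCR7 (0.36 and 0.50), LPIN1 (0.34 and 0.45), MVK (0.30 and 0.44), INSIG1 (0.27 and 0.41), TMEM97 (0.23 and 0.32) and ACLY (0.23 and 0.32) were the 10, in the order shAPE1#1 and shAPE1#3. ELOVL6 was lower (-0.27 and -0.24).

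With shAPE1#3, MSMO1 (0.41), FASN (0.31), SREBF1 (0.28) and SCAP (0.22) were also higher and MYLIP (-0.31) lower. The shAPE1#1 count was 6 without shControl ABS replicate 1 and 7 without shAPE1#1 ABS replicate 1, and the shAPE1#3 count was 10 without shControl ABS replicate 2 and 9 without shAPE1#3 ABS replicate 3. Between the shRNAs in OE33, edgeR's quasi-likelihood test called 0 members unexposed and 0 after ABS (0.0% and 0.116% of genes called; 5 and 4 members at an unadjusted p under 0.05; 0 and 0 by DESeq2). Over all 15540 genes, 0 were called between these cells unexposed and 18 after ABS. The counts therefore do not show whether the OE33 cells labelled shAPE1#1 and shAPE1#3 carry different shRNAs, and their like changes are not independent support for each other. The summed epithelial markers after ABS stood at 17590 to 19450 CPM with either shRNA and at 21460 to 22000 CPM in shControl, and their part in these results was not tested.

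The difference from shControl itself differed between the lines for some members. For unexposed shAPE1#1, the OE33 effect minus the FLO1 effect was called for 6.31% of genes (2.37% more positive and 3.94% more negative) and for 6 members, all more negative in OE33: ELOVL6 (-0.93 ± 0.15), TM7SF2 (-0.81), MSMO1 (-0.71), ACSS2 (-0.65), SCD (-0.45) and FDFT1 (-0.39). For shAPE1#3 it was called for 7.19% of genes (3.52% and 3.67%) and for 3 members. ABCA1 (1.13 ± 0.23, edgeR adjusted p = 0.00109) and SCD (0.54) were more positive in OE33 and HSD17B7 (-0.55) more negative. The sign for SCD thus differed between the shRNAs: against shControl its FLO1 change was 0.83 with shAPE1#1 and 0.07 with shAPE1#3, and its OE33 change 0.40 and 0.63.

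Before any exposure the lines already differed. In unexposed shControl cells 77.6% of all genes were called between OE33 and FLO1 (37.6% higher and 39.9% lower in OE33), and 34 of the 37 members were, 23 higher and 11 lower in OE33, with SC5D, FASN and SREBF2 not called. Of the 18 genes of the mevalonate and squalene to cholesterol stages, 16 were higher in OE33 and LSS was lower. ELOVL6 was highest relative to FLO1 (log2 fold change 3.19 ± 0.11), followed by INSIG2 (2.84 ± 0.18), CYP51A1, the lanosterol demethylase (2.26 ± 0.11), MSMO1 (2.25 ± 0.16) and HSD17B7 (2.09 ± 0.11). ABCG1 (-4.55 ± 0.24), ABCA1 (-2.58 ± 0.17), SREBF1 (-1.67 ± 0.12), FADS1 (-1.47 ± 0.09) and FADS2 (-1.21 ± 0.12) were lower in OE33.

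On a scale per kilobase of exon, which allows genes to be compared, SCD was the highest member in both lines, at 100.5 ± 5.43 CPM per kb in FLO1 and 68.3 ± 4.45 CPM per kb in OE33 (mean ± SD, n = 3). ACLY, FASN and SREBF1 followed in FLO1, at 67.4, 53.8 and 49.1 CPM per kb. In OE33, FDPS, ACLY and FASN followed, at 46.6 ± 2.19, 45.7 ± 1.16 and 44.4 ± 1.21 CPM per kb, neighbours whose ranges of 1 SD overlap, and SREBF1 stood at 14.1 CPM per kb. STARD4, the member that differed most in its ABS response, was low in both, at 1.962 ± 0.165 CPM per kb in FLO1 and 1.12 ± 0.15 in OE33. FADS1 and FADS2 share 490 exon bases on opposite strands, and the reads of these bases cannot be told apart. FADS2 also shares 49 exon bases with FEN1 on the same strand, and FEN1 held 174783 counts over all libraries against 11619 for FADS2. TM7SF2 shares 16 with VPS51 on the same strand, and SREBF1 shares 556 with RAI1 on the opposite strand. Calls of FADS2 are therefore uncertain.

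**Figure D5:**
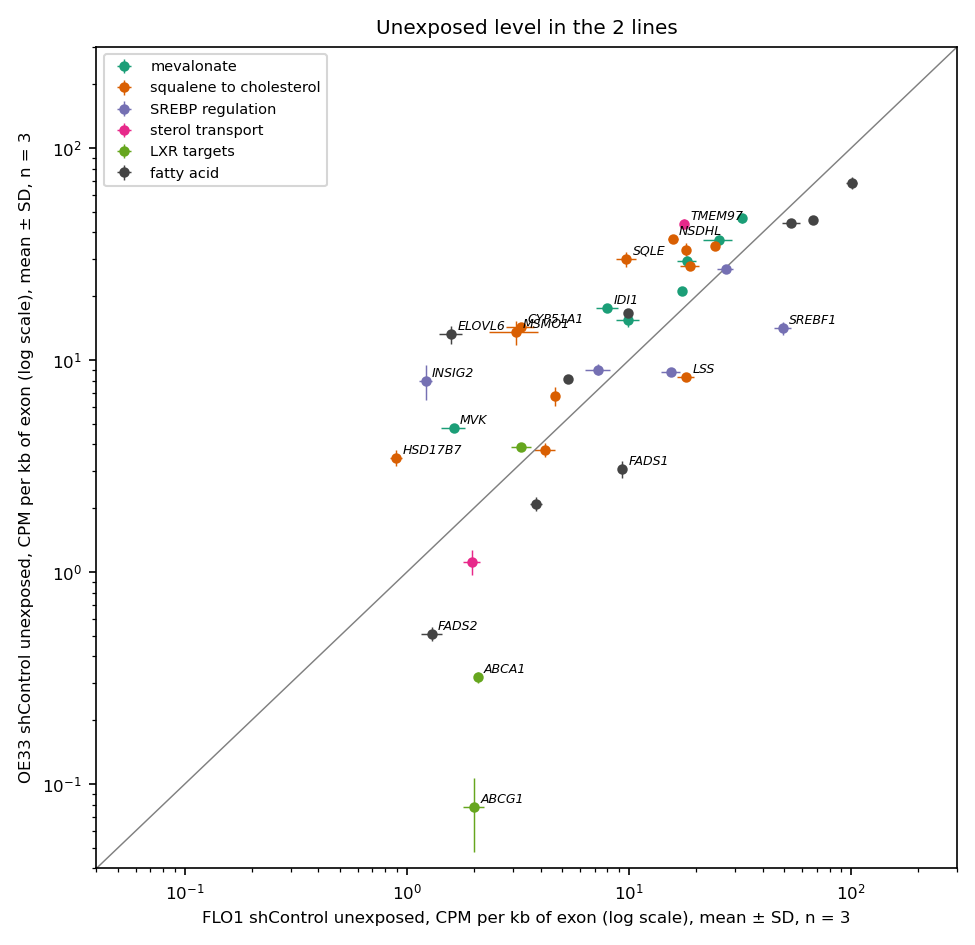
Level of each of the 37 genes in unexposed shControl cells, as CPM per kb of exon on log axes, in FLO1 (horizontal) and OE33 (vertical), mean with SD bars over 3 libraries, coloured by step; the grey line marks equal levels and names are given where the levels differ by more than a factor of 2. Most genes of sterol synthesis lie above the line, while ABCG1, ABCA1, FADS1, FADS2 and SREBF1 lie below it.

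A second list held 53 further genes of the same pathways, namely SREBP processing and turnover, isoprenoid branches, sterol storage and lysosomal transport, LXR receptors and targets, and fatty acid elongation and glycerolipids. After ABS in shControl cells, edgeR called 0 of 52 tested higher and 1 lower in FLO1 (11 at an unadjusted p under 0.05 in either direction), and 2 higher and 1 lower in OE33, against 3.0% and 8.4% of all genes. DESeq2 called 2 higher and 3 lower in each line. DGAT2, which makes triglyceride, was the FLO1 gene, at 50.7, 49.5 and 52.7 CPM unexposed and 32.8, 41.6 and 36.2 CPM after ABS (log2 fold change -0.51, edgeR adjusted p = 0.003). It also fell in FLO1 shAPE1#1 cells (-0.47) and in FLO1 shAPE1#3 cells (-0.37). In OE33, NPC1, which exports cholesterol from lysosomes, rose from 48.9, 49.4 and 51.8 CPM to 65.2, 70.9 and 67.5 CPM (log2 fold change 0.46), NCEH1, a cholesteryl ester hydrolase, rose by 0.25 and PDSS1, of ubiquinone synthesis, fell by 0.33. The difference of the ABS response between the lines in shControl cells was called for 0 of 53 by edgeR's quasi-likelihood test, with 5 at an unadjusted p under 0.05 and 0 by DESeq2. In unexposed cells against shControl, 6 of these genes were higher and 1 lower with shAPE1#1 in FLO1, 0 and 0 with shAPE1#3 in FLO1 (3 at an unadjusted p under 0.05, 0 by DESeq2), 8 and 7 with shAPE1#1 in OE33, and 11 and 10 with shAPE1#3 in OE33, against 6.74%, 0.788%, 16.4% and 21.7% of all genes. LIPA, the lysosomal acid lipase, rose with shAPE1#1 in FLO1, by 0.59 on the log2 scale. In OE33, SCD5, a second stearoyl-CoA desaturase, fell by 0.68 with shAPE1#1 and by 0.64 with shAPE1#3, and ACACB, the mitochondrial acetyl-CoA carboxylase, by 0.64 and 0.63.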

How the data were processed

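Poly(A) RNA of 36 libraries (12 groups of 3) was analysed from the raw read counts per gene that the authors deposited as 1 matrix. Per the submitters' processing notes, reads passed through Trimmomatic 0.36, STAR 2.5.2b and featureCounts (Subread 1.5.2) on GRCh38. Which annotation release was counted, whether strand was used and how multiply matching reads were handled is not given in the sources used here. Gene identifiers were matched to GENCODE 29 (56898 of 57500); unmatched rows held 0.0183% of counts and stayed in the library totals. The column of FLO1 shAPE1#3 ABS replicate 3 carries an extra suffix and was used under that name. Library totals were 20650925 to 40654584 counts, and replicates were separate libraries (chi-square per degree of freedom of 2.47 or more in all 36 pairs).

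Counts were fitted with edgeR 4.0.16 in R 4.3.3: TMM scaling, filterByExpr, robust quasi-likelihood with 1 coefficient per group, over the 18 libraries of a line, or over all 36 for differences between lines. P-values were adjusted by Benjamini-Hochberg over all genes tested, and a gene was called under 0.05. CPM is the count scaled to a library total of 1000000, without TMM. SE is that of the fitted log2 fold change. Alternatives were DESeq2 1.42.0, RLE scaling, no filter, only the groups compared, replicate as a block, and leaving out each library. The fits of the shControl ABS response were also run on simulated counts. There all groups shared the same gene means apart from added changes, and no library stood apart. Those runs therefore do not bear on results that rest on libraries that stood apart. Members and lists were chosen with earlier results of these data known, and 6 of the 27 comparisons (between shRNAs, and of the knockdown effect between lines) were added after values were seen. Named with values were called members, up to the 12 largest per comparison, the regulators and LXR targets, and up to 3 called genes of the second list per comparison; members beyond these were added after their values were seen. Replicate numbers are shared among groups, but in no comparison did the deviations of all 3 same-numbered pairs correlate above 0.1, so that no pairing was used.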

Additional observations from a re-analysis of the deposited data

Results flagged for a closer look

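The ABS response differed between the lines, by the edgeR test of the difference itself in shControl cells (OE33 change minus FLO1 change, log2), for STARD4 (-1.76), MVK (-1.17), HMGCS1 (-1.11), IDI1 (-0.89), INSIG1 (-0.85), HSD17B7 (-0.78), LPIN1 (-0.70), SQLE (-0.61), SCD (-0.53), ACSS2 (-0.38) and FDFT1 (-0.37). Averaged over both shAPE1 shRNAs, it differed for STARD4 (-1.27), IDI1 (-0.98), HMGCS1 (-0.94), MSMO1 (-0.75), INSIG1 (-0.70), HSD17B7 (-0.65), MVK (-0.46), SQLE (-0.44), FDFT1 (-0.38), ACAT2 (-0.32), ACSS2 (-0.24) and ABCA1 (0.52). Over all genes these 2 differences were called for 1.73% and 6.85%.

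The effect of shAPE1#1 in unexposed cells differed between the lines for ELOVL6 (-0.93), TM7SF2 (-0.81), MSMO1 (-0.71), ACSS2 (-0.65), SCD (-0.45) and FDFT1 (-0.39), and that of shAPE1#3 for ABCA1 (1.13), SCD (0.54) and HSD17B7 (-0.55), each as OE33 minus FLO1 on the log2 scale. Over all genes these differences were called for 6.31% (shAPE1#1) and 7.19% (shAPE1#3). The share of members for shAPE1#3 was near the latter. Single values of a gene were not tested for outliers, since each group holds 3 libraries.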

How the results depend on the processing

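With only the groups compared fitted, which leaves 4 residual degrees of freedom in a pair of groups, the number of members called was 0 (FLO1 shControl ABS), 15 (FLO1 shAPE1#1 ABS), 7 (FLO1 shAPE1#3 ABS), 1 (OE33 shAPE1#1 ABS) and 8 (OE33 shAPE1#3 ABS). For the knockdown it was 17 and 4 with shAPE1#1 in FLO1, unexposed and after ABS, and 4 and 6 in OE33. Between the FLO1 shRNAs unexposed it was 21, for the OE33 shAPE1#3 interaction 1, for the line difference in shControl cells 5, and for the shAPE1#3 effect between lines 9. Without a filter on low counts, 1 member was called for shAPE1#3 after ABS in FLO1, 1 for the FLO1 shAPE1#1 interaction and 7 for shAPE1#1 after ABS in OE33. DESeq2 called 1 for shAPE1#3 after ABS in FLO1, 1 for the OE33 shAPE1#3 interaction and 5 for the shAPE1#3 effect between lines. The cause of these moves was not tested. Under these settings, and with replicate as a block, the calls over all genes are not given. The moves are therefore not read as a trait of the members. RLE scaling kept each count within 1.5 times, and under no alternative run did a called member turn its sign.

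Leaving out 1 library at a time gave these ranges of members called. In FLO1 the calls over all genes moved too without FLO1 shControl ABS replicate 2, as given above for several comparisons. In OE33 and between the lines they are not given, so that these ranges do not set the members apart from genes at large. After ABS they were 3 to 6 (FLO1 shControl), 7 to 11 (FLO1 shAPE1#1), 2 to 6 (FLO1 shAPE1#3), 7 to 12 (OE33 shControl), 4 to 9 (OE33 shAPE1#1) and 2 to 2 (OE33 shAPE1#3). For knockdown in FLO1 they were 4 to 16 and 11 to 15 with shAPE1#1, unexposed and after ABS, and 0 to 0 and 0 to 6 with shAPE1#3. In OE33 they were 3 to 8 and 6 to 11, and 9 to 12 and 9 to 15. The FLO1 shAPE1#1 interaction gave 0 to 1 and the other interactions 0 to 0. Between shRNAs they were 8 to 13 and 13 to 20 in FLO1 and 0 to 0 in OE33. Between lines they were 34 to 34 unexposed, 9 to 13 and 10 to 14 for the ABS response in shControl and shAPE1 cells, and 5 to 7 and 2 to 4 for the shAPE1#1 and shAPE1#3 effects.

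With replicate number as a block, FLO1 gave 3, 7 and 2 members called after ABS (shControl, shAPE1#1, shAPE1#3), OE33 gave 12, 8 and 4, and the count was 6 in place of 9 for unexposed shAPE1#1 in FLO1. No count moved by more than 1.5 times under the block. The numbers did not pair the libraries: in FLO1 shControl cells unexposed and ABS libraries of the same number correlated at -0.167, -0.672 and -0.399 in their deviations from the group means. All 3 such correlations were positive for ABS in FLO1 shAPE1#1 cells (0.172, 0.088 and 0.084) and in OE33 shAPE1#3 cells (0.058, 0.283 and 0.254), and every library correlated best with its own number in the latter alone.

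Depth limits ABCG1, ABCA1 and STARD4 in OE33 and INSIG2 and HSD17B7 in FLO1, which rest on low counts. The precision is that of 3 libraries per group.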

Other observations

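In the second list, 2 genes of fatty acid metabolism were near absent from 1 line. ELOVL5, an elongase of polyunsaturated fatty acids, stood at 64.4 to 117.9 CPM in the FLO1 libraries and at 0.0 to 0.438 CPM in the OE33 libraries. ME1, the cytosolic malic enzyme that supplies NADPH, stood at 64.0 to 89.2 CPM in OE33 and at 0.0 to 0.307 CPM in FLO1. Both genes were chosen after their values were seen, and the groups of the lines did not overlap in any library.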
